A study of Mus musculus with 30 samples.

Results

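The G1 cyclins, their kinases and the inhibitors of those kinases were followed across sorted stromal cells of the newborn mouse thymus. The set held 10 genes, found by symbol among the 18847 genes of the expression table: the D-type cyclins Ccnd1, Ccnd2 and Ccnd3, the E-type cyclins Ccne1 and Ccne2, the kinases Cdk4 and Cdk6, the transcription factor E2f1, and the inhibitors Cdkn1b (p27) and Cdkn2c (p18). Each symbol matched 1 gene, and all 10 passed the filter on low values (1 FPKM in at least 2 libraries), as did 16425 genes in all. FPKM counts fragments per kilobase of gene and is scaled to library size. The gene lengths and counting behind the table are not known, so comparisons by FPKM between different genes are approximate.

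RNA sequencing was done on 30 libraries from B6.SJL mice of mixed sex. On postnatal day 1 the mice received either aflibercept (VEGF-Trap, called Trap here), a decoy made of VEGF receptor domains that binds VEGF-A, or human Fc protein as control, and stromal cells were taken 2 days later, on postnatal day 3. After depletion of CD45-bearing cells, 5 populations lacking CD3, CD4, CD8, CD45 and TER119 were sorted: endothelium (CD31+), CD146+ mesenchyme and CD140a+ mesenchyme (both EpCAM- and CD31-), cortical epithelium (cTEC, EpCAM+ with Ly51) and medullary epithelium (mTEC, EpCAM+ with low or no Ly51). Each population had 2 control and 4 Trap libraries. No group carried a transgene or a deletion according to the labels, and every animal was injected. The number of animals behind a library is not in the labels, and p-values therefore reflect only library-to-library spread, some of it possibly technical.

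The genes act at the step where a cell leaves G1 for S phase. D-type cyclins, which respond to growth factors, join CDK4 or CDK6 and phosphorylate the retinoblastoma protein; this frees E2F factors such as E2F1, which switch on E-type cyclins and genes for DNA replication. Cyclin E works with CDK2, which p27 restrains, while p18, of the INK4 family, binds CDK4 and CDK6 and keeps them from cyclin D. VEGF is a growth factor for endothelial cells, and D-type cyclins are among the genes that rise when cells are driven to divide.

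Each population held the markers of its label at the highest level. Marker lists of 8 genes each summed to 1401 to 1573 FPKM in endothelium for endothelial markers (at most 36.9 elsewhere), to 4813 to 6256 in CD146+ mesenchyme for its own (at most 760 elsewhere, in mTEC), and to 5849 to 7556 in CD140a+ mesenchyme (at most 707 elsewhere, in CD146+ mesenchyme). Cortical markers summed to 1008 to 1464 FPKM in cTEC and to at most 176 elsewhere. Medullary markers summed to 1071 to 2831 in mTEC but also to 255 to 882 in cTEC. Most of that cTEC sum was Ccl21a (mean 475 FPKM), followed by Krt5 (77.3) and Krt14 (13.5). Aire, Fezf2 and Cd80 had cTEC means of 1.05, 1.21 and 1.26 FPKM, and Cldn4 and Tnfrsf11a 5.12 and 4.65. All 8 markers had higher means in mTEC, with Aire at 126 and Fezf2 at 121. A list of 14 thymocyte genes was present in full in all 6 cTEC libraries, at 70.6 to 106 FPKM in the controls and 110 to 173 with Trap, against at most 16.9 in any other population. Deposited FPKM summed to 184608 to 241993 per library, and 10298 to 13661 genes reached 1 FPKM. The 2 lowest of the 30 gene counts were those of endothelial Trap replicates 2 (10298) and 4 (10572), against 11011 and 11228 in the other endothelial Trap libraries and 11163 and 11304 in the endothelial controls. In bulk RNA, fewer cells of a type and less RNA per cell cannot be told apart.

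The levels of the D-type cyclins differed between populations, with Ccnd2 the main one in CD146+ mesenchyme, cTEC and mTEC. Levels are given over the 6 libraries of a population, control and Trap together. The difference of a population from the mean of the other 4 comes from limma on log2(FPKM + 1), with 1 weight per population and Benjamini-Hochberg adjustment over all 16425 genes. Differences between populations were frequent among all genes, so a call here places a gene and does not set the group apart.

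Ccnd1 encodes cyclin D1, the D-type cyclin best known as a target of growth factor signals. Its level in endothelium ran from 1.99 to 55.1 FPKM with a median of 10.4, and in cTEC from 0.43 to 1.6 with a median of 0.705. It was 6.48 to 12.1 FPKM (median 8.08) in mTEC, 3.34 to 8.58 (median 6.50) in CD146+ mesenchyme and 2.81 to 6.75 (median 4.21) in CD140a+ mesenchyme. The endothelial range was the widest, with the control libraries at its top, and the cTEC libraries lay below all others. Ccnd1 was higher in endothelium than in the other populations by a log2 value of 1.79 ± 0.28 (SE, limma adjusted p = 8.0e-06) and lower in cTEC by 2.30 ± 0.19 (limma adjusted p = 6.8e-11). With control libraries alone the endothelial difference was 2.93 (limma adjusted p = 1.9e-05). In mTEC it was higher by 0.66 ± 0.25 (limma adjusted p = 0.0254), a call lost under TPM, upper quartile and quantile scaling (limma adjusted p = 0.0588, 0.0910 and 0.134).

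Ccnd2, which encodes cyclin D2, was the main D-type cyclin by FPKM in every population but control endothelium. It reached 68.2 to 119 FPKM (median 78.8) in mTEC and 59.2 to 78.1 (median 68.8) in CD146+ mesenchyme. It was 28.9 to 35.2 FPKM (median 31.9) in cTEC, 12.9 to 30.2 (median 20.3) in endothelium and 10.1 to 16.8 (median 11.9) in CD140a+ mesenchyme. The mTEC and CD146+ ranges overlapped each other and lay above all other libraries. Ccnd2 was higher in mTEC by 1.52 ± 0.14 (SE, limma adjusted p = 2.8e-10) and in CD146+ mesenchyme by 1.25 ± 0.12 (limma adjusted p = 2.3e-09), and lower in CD140a+ mesenchyme by 1.73 ± 0.12 (limma adjusted p = 9.9e-13) and in endothelium by 0.96 ± 0.16 (limma adjusted p = 1.2e-05). All 4 calls held in each of the 42 settings tried, scalings included. In cTEC the difference was -0.09 ± 0.10 (limma adjusted p = 0.493).

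Ccnd3, the gene for cyclin D3, was low in these cells, from 0.45 FPKM in an endothelial library to 5.32 in a CD140a+ library. In CD140a+ mesenchyme it was 3.22 to 5.32 FPKM with a median of 3.91, and its highest value elsewhere was 2.76, in CD146+ mesenchyme. No CD140a+ library overlapped another population. It was higher in CD140a+ mesenchyme by 1.11 ± 0.14 (SE, limma adjusted p = 1.2e-07), and lower in endothelium by 0.57 ± 0.18 (limma adjusted p = 0.0143) and in mTEC by 0.47 ± 0.16 (limma adjusted p = 0.0162). The endothelial call was lost with quantile scaling (limma adjusted p = 0.301) and without either control library of endothelium (limma adjusted p = 0.0810 and 0.0700). The mTEC call was lost without control replicate 2 of mTEC (limma adjusted p = 0.135).

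**Figure D1:**
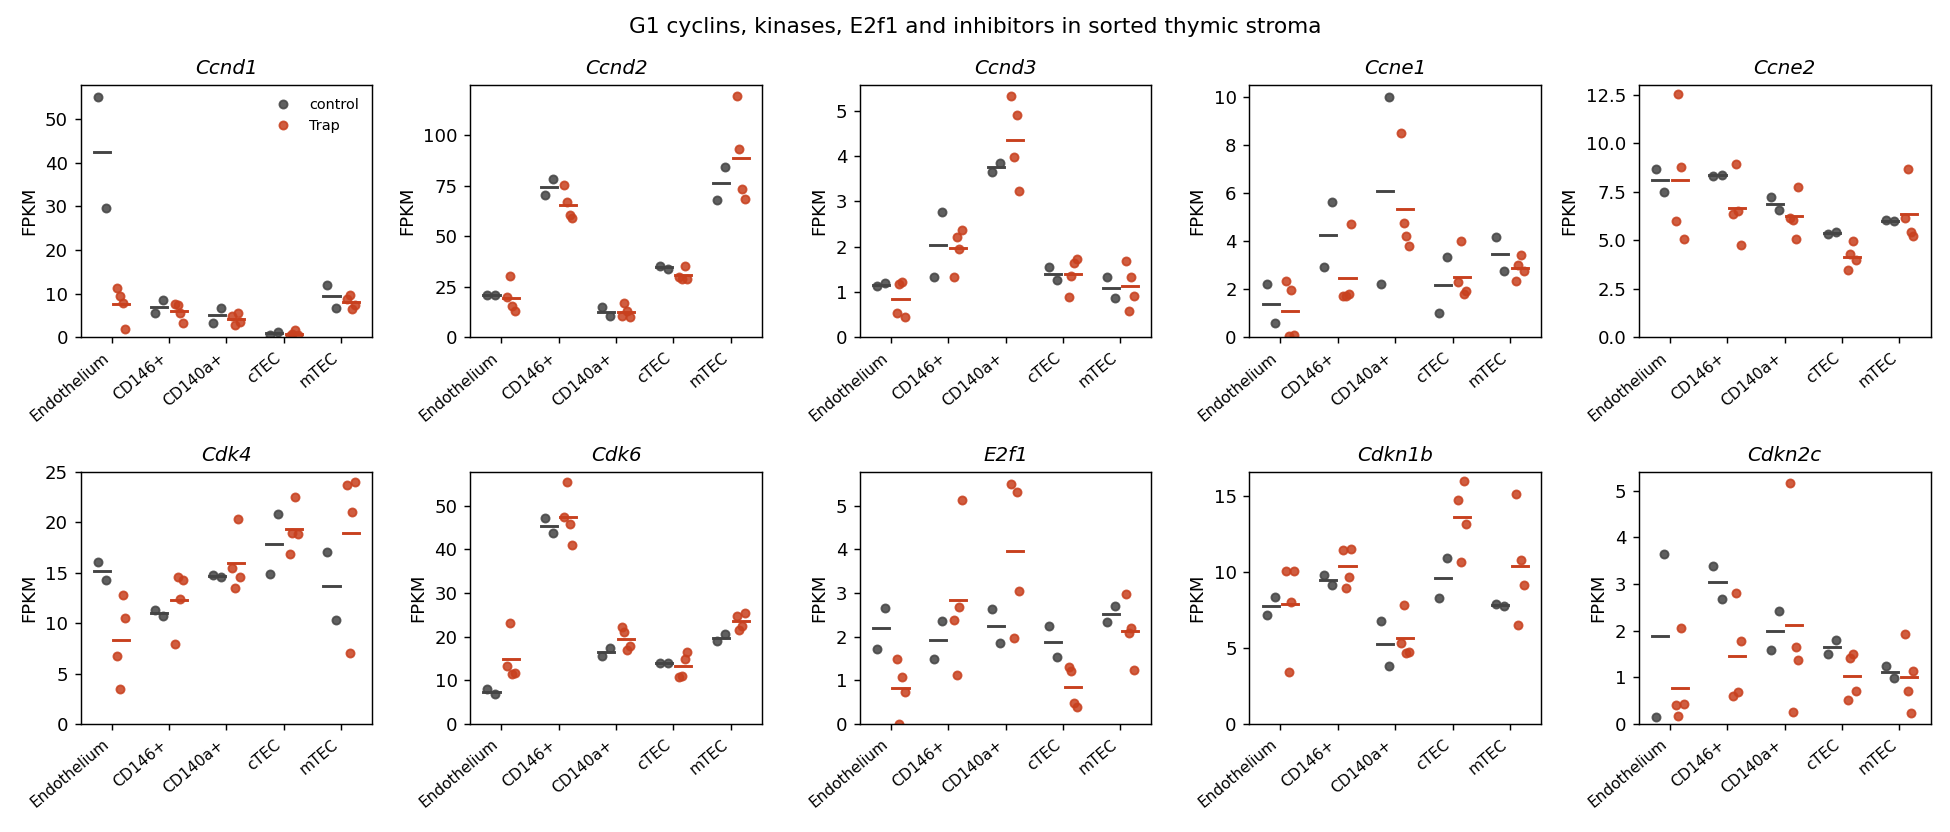
FPKM of the 10 genes on linear axes that differ between panels, with each point a library (gray, control; red, Trap) and each line the mean of its group, in the 5 sorted populations. Ccnd1 stands high in the 2 endothelial controls (55.1 and 29.7 FPKM), Ccnd2 in mTEC and CD146+ mesenchyme, Ccnd3 in CD140a+ mesenchyme and Cdk6 in CD146+ mesenchyme.

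Expressed as shares of the summed FPKM of the 3 genes, the make-up of D-type cyclin transcript differed by population. Ccnd2 gave 87.3 to 91.2% of the sum in CD146+ mesenchyme, 91.6 to 95.7% in cTEC and 83.6 to 91.9% in mTEC. In CD140a+ mesenchyme the shares were mixed: Ccnd2 gave 49.95 to 71.2%, Ccnd1 11.9 to 31.9% and Ccnd3 16.6 to 25.4%. In no other population did the Ccnd3 share pass 5.48%. Endothelium was the only population in which any library drew over 50% of the sum from Ccnd1, and those were its 2 control libraries.

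**Figure D2:**
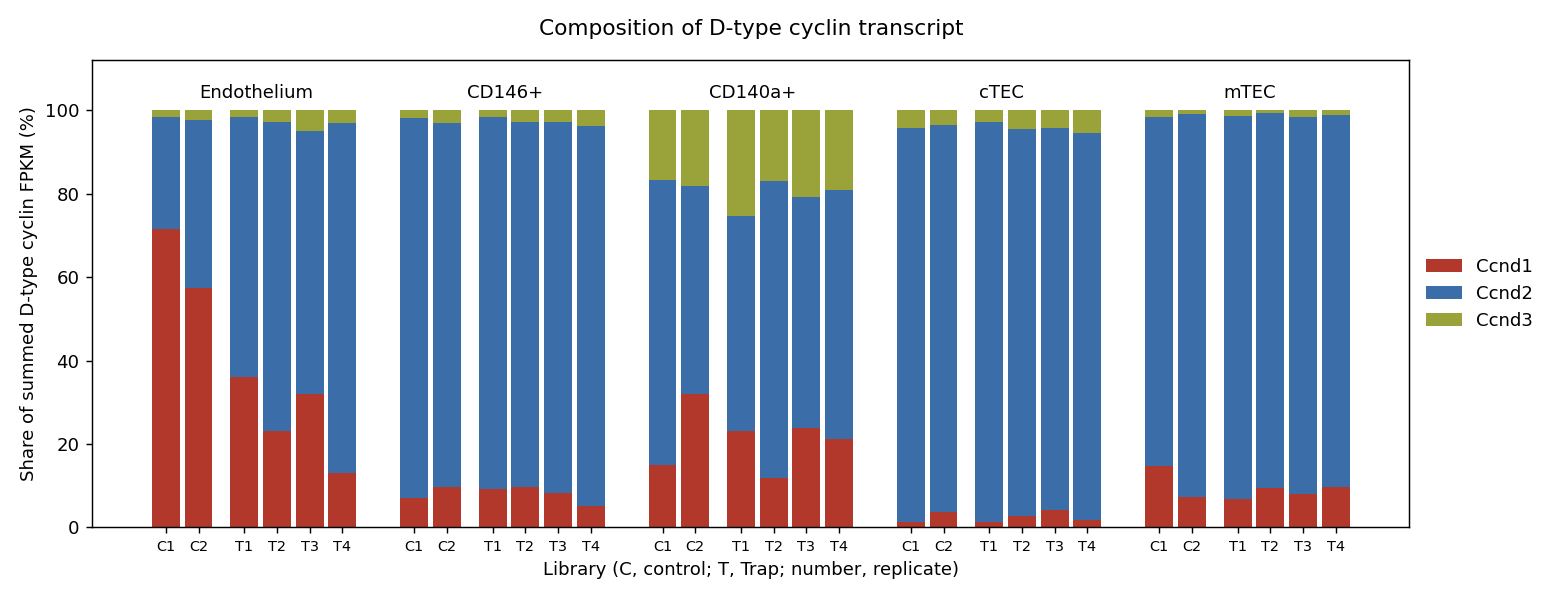
Stacked bars give the percent of the summed FPKM of Ccnd1, Ccnd2 and Ccnd3 that each gene holds, with 1 bar per library (C, control; T, Trap) in the 5 populations. Ccnd1 fills 71.5 and 57.4% of the endothelial control bars and 13.0 to 36.0% of the endothelial Trap bars, while Ccnd2 fills most of the cTEC, mTEC and CD146+ bars.

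The E-type cyclins activate CDK2 at the end of G1. Ccne1 ran from 0.04 FPKM in endothelium to 9.99 in CD140a+ mesenchyme, where its median was 4.495, against 1.29 in endothelium. It was the gene with the second widest spread between libraries of 1 group (0.612 on the log2 scale, after 0.641 for Cdkn2c). Ccne1 was higher in CD140a+ mesenchyme by 0.90 ± 0.26 (SE, limma adjusted p = 0.00474), a call lost without its control replicate 2, which held the 9.99 (0.45, limma adjusted p = 0.200). It was lower in endothelium by 1.06 ± 0.35 (limma adjusted p = 0.0151), a call lost without endothelial control replicate 2 (limma adjusted p = 0.173) and with quantile scaling (limma adjusted p = 0.0611).

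Ccne2 was more even, with medians between 4.62 FPKM in cTEC and 8.09 in endothelium, and outside endothelium its libraries lay between 3.45 and 8.92. It was lower in cTEC by 0.47 ± 0.11 (SE, limma adjusted p = 7.6e-04), and no other population passed. With control libraries alone the cTEC difference was -0.38 (limma adjusted p = 0.110). Ints8, whose exons overlap those of Ccne2 on the opposite strand and whose level was higher (15.6 ± 2.44 FPKM in cTEC, SD, n = 6), was also lower in cTEC, by 0.66 ± 0.09 (limma adjusted p = 3.1e-07), and its part in the Ccne2 value was not tested. By FPKM, Ccne2 exceeded Ccne1 in the mean of every population (8.09 against 1.21 in endothelium, and 6.47 against 5.58, the closest pair, in CD140a+ mesenchyme).

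Cdk4 and Cdk6 encode the alternative partners of the D-type cyclins. Cdk6 reached 40.9 to 55.3 FPKM (median 46.4) in CD146+ mesenchyme, with no overlap with any other library. It was 19.0 to 25.5 FPKM (median 22.0) in mTEC, 15.7 to 22.2 (median 17.7) in CD140a+ mesenchyme, 10.8 to 16.6 (median 14.02) in cTEC and 6.85 to 23.2 (median 11.6) in endothelium. Those 4 ranges overlapped in part, with the endothelial controls below every other library. Cdk6 was higher in CD146+ mesenchyme by 1.54 ± 0.11 (SE, limma adjusted p = 4.9e-12), and lower in endothelium by 1.04 ± 0.14 (limma adjusted p = 7.1e-07) and in cTEC by 0.59 ± 0.09 (limma adjusted p = 7.3e-06). With control libraries alone the cTEC difference was -0.37 (limma adjusted p = 0.0621).

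Cdk4 was more even. Its medians ran from 11.7 FPKM in endothelium, 11.9 in CD146+ mesenchyme and 14.7 in CD140a+ mesenchyme to 18.9 in cTEC and 19.0 in mTEC. It was higher in cTEC by 0.47 ± 0.16 (SE, limma adjusted p = 0.0151), a call lost without cTEC control replicate 2 (limma adjusted p = 0.127) and with equal weight for all libraries (limma adjusted p = 0.0711). Of the summed FPKM of the pair, Cdk6 gave 79.7% ± 3.70 (SD, n = 6) in CD146+ mesenchyme, 58.2% ± 10.3 in mTEC, 54.5% ± 5.54 in CD140a+ mesenchyme and 41.9% ± 4.61 in cTEC. The lowest CD146+ library, at 74.2%, lay below the highest mTEC library, at 75.3%, and above all cTEC and CD140a+ libraries. That mTEC library was Trap replicate 2, with Cdk4 at 7.04 FPKM. In endothelium the share was 53.15% ± 21.0 and ran from 32.4 to 87.1%, its top above the highest CD146+ library (85.6%).

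The letters before the starts of the 2 kinase genes are shown as a description. These genes were picked after their endothelial Trap values had been seen (given later), and no link to those values was tested. RefSeq promoter windows (GRCm38.p6, 250 bases before to 50 after a start) were found for 7 of the 10 genes, as 9 windows, and not for Ccnd1, Ccnd2 and Ccne2. Windows of E2f1, Cdk6 and Cdkn2c, and a window of Ccnd3, lay inside the gene as GENCODE M21 places it. For E2f1 the 250 bases were chr2:154569427-154569676, within a gene that spans 154559407-154569892 on the minus strand. The bases before that gene were therefore not searched. An E2F site in the forms TTTCCCGC, TTTCGCGC, TTTGCCGC or TTTGGCGC, on either strand, was in 0 of the 9 windows and in 744 of 32851 windows overall (2.26%). The palindrome CACGTG, an E-box that basic helix-loop-helix factors such as MYC can bind, was chosen for search after these windows had been seen. It was in 3 of the 9 windows and in 2349 of all 32851 (7.15%). The Cdk4 window held it 4 times, a number that 8 windows of the whole table reached or passed, its own included (0.0244%), and the Cdk6 window held it once. The 250 bases upstream of each RefSeq start follow, 5′ to 3′ on the plus strand, with the E-box in capitals. Cdk4 is at chr10:127063285-127063534 and Cdk6 at chr5:3343643-3343892, inside the gene, which GENCODE M21 starts at 3341485. A match is a run of letters and not a measured site.
Cdk4: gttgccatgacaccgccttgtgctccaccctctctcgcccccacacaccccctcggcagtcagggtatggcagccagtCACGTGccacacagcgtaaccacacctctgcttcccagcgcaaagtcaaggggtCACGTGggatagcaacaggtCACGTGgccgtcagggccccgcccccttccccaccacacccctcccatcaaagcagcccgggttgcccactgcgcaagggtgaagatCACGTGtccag
Cdk6: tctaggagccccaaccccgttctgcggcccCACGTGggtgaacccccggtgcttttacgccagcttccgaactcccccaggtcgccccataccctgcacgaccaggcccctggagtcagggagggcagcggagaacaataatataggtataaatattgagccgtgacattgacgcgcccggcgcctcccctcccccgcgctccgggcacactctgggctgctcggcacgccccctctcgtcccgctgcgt

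E2f1, the factor released when the retinoblastoma protein is phosphorylated, was low in all populations, between 0.00 and 5.50 FPKM. Its median was 2.85 FPKM in CD140a+ mesenchyme, 2.38 in CD146+ mesenchyme, 2.26 in mTEC, 1.28 in endothelium and 1.27 in cTEC. The ranges of all 5 populations overlapped. E2f1 was higher in CD140a+ mesenchyme by 0.51 ± 0.20 (SE, limma adjusted p = 0.0358) and lower in cTEC by 0.46 ± 0.18 (limma adjusted p = 0.0370). Both calls were lost with equal weight (limma adjusted p = 0.0508 and 0.0842) and with control libraries alone (0.06 and -0.15, limma adjusted p = 0.912 and 0.724).

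Cdkn1b encodes p27, whose protein rises in resting cells. It ran from 3.44 to 16.0 FPKM, with medians of 12.025 in cTEC, 9.73 in CD146+ mesenchyme, 8.52 in mTEC, 8.21 in endothelium and 5.05 in CD140a+ mesenchyme. The cTEC libraries were high and the CD140a+ libraries low, without overlap between those 2 populations. Cdkn1b was higher in cTEC by 0.50 ± 0.13 (SE, limma adjusted p = 0.00273) and lower in CD140a+ mesenchyme by 0.70 ± 0.15 (limma adjusted p = 2.4e-04). With control libraries alone the cTEC difference was 0.33 (limma adjusted p = 0.264). Thymocyte RNA was highest in cTEC (above) and its part in the cTEC levels of Cdkn1b, Cdk4, Cdk6, Ccne2 and E2f1 was not tested.

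Cdkn2c, for p18, was low and scattered: 0.15 to 5.16 FPKM over the 30 libraries, with medians of 0.42 in endothelium, 1.06 in mTEC, 1.46 in cTEC, 1.62 in CD140a+ mesenchyme and 2.24 in CD146+ mesenchyme. Within CD140a+ mesenchyme alone it spanned 0.27 to 5.16. No population passed the test for Cdkn2c (limma adjusted p from 0.190 to 0.829).

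In all, 21 of the 50 tests of a gene in a population passed. In endothelium 1 gene was higher and 4 were lower (5 of 10, against 43.3% of all genes). In CD146+ mesenchyme 2 were higher and 0 lower (45.5% of all genes), in CD140a+ mesenchyme 3 higher and 2 lower (54.3%), in cTEC 2 higher and 4 lower (54.4%), and in mTEC 2 higher and 1 lower (53.4%). With only the 2 control libraries of each population the counts were 3, 2, 3, 1 and 1. The shares of all genes in that fit are not given here, so these counts are not set against the percents above. The calls lost were Ccnd3 and Ccne1 in endothelium, and Ccne1 and E2f1 in CD140a+ mesenchyme. Also lost were Ccne2, Cdk4, Cdk6, E2f1 and Cdkn1b in cTEC, and Ccnd1 and Ccnd3 in mTEC. When each gene's populations were put in order of level, 8 of the 40 pairs of neighbours differed (20%, where 45.3% of all genes did in a pair of populations, averaged over the 10 pairs, which include pairs that are not neighbours): endothelium above mTEC and CD140a+ mesenchyme above cTEC for Ccnd1; CD146+ mesenchyme above cTEC, cTEC above endothelium and endothelium above CD140a+ mesenchyme for Ccnd2; CD140a+ above CD146+ mesenchyme for Ccnd3; and CD146+ mesenchyme above mTEC and CD140a+ mesenchyme above cTEC for Cdk6. No neighbours differed for Ccne1, Ccne2, Cdk4, E2f1, Cdkn1b or Cdkn2c, and at this spread their order is not fixed.

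**Figure D3:**
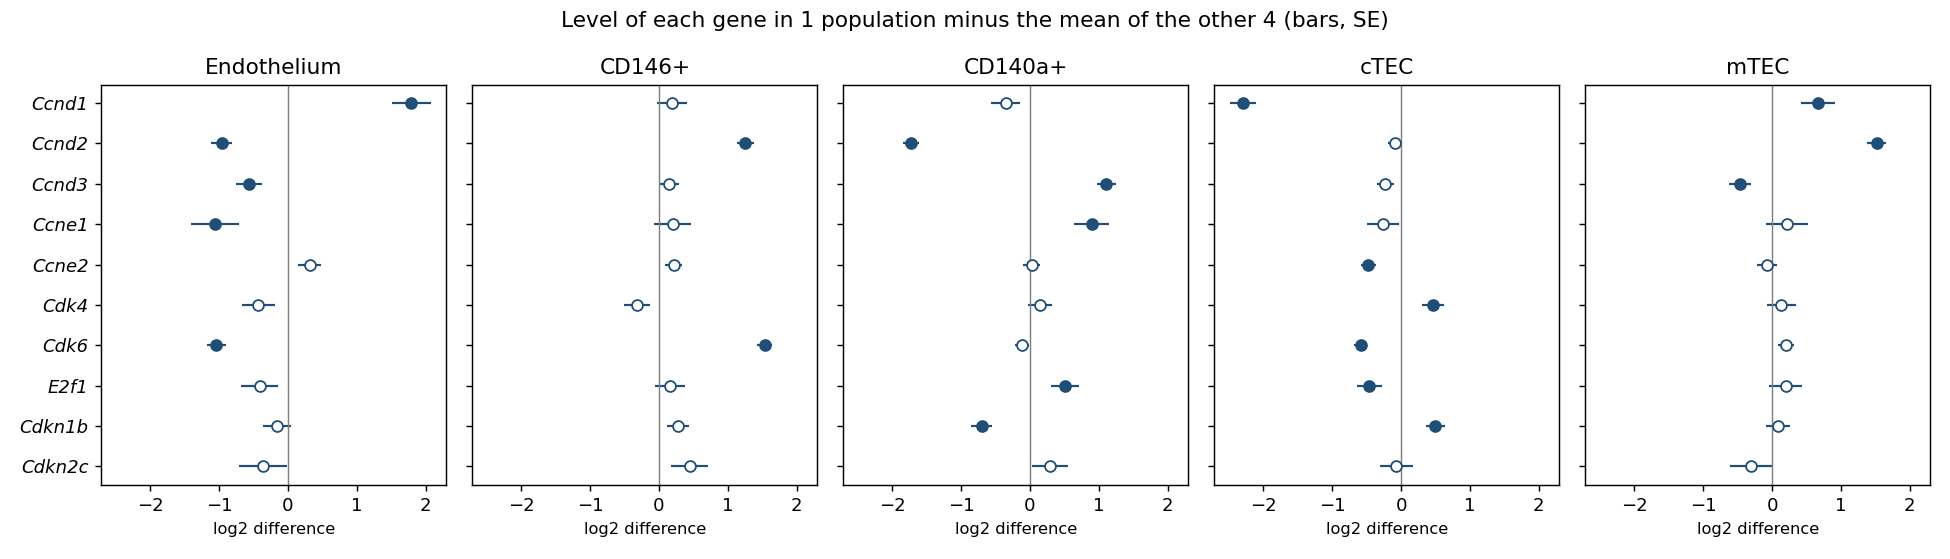
Difference in log2(FPKM + 1) between 1 population and the mean of the other 4 for each gene, with bars of 1 SE and filled points for limma adjusted p under 0.05. The widest differences are Ccnd1 in endothelium (1.79) and cTEC (-2.30), Ccnd2 in CD140a+ mesenchyme (-1.73) and mTEC (1.52), and Cdk6 in CD146+ mesenchyme (1.54).

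Trap was then compared with control in each population. The comparison asks how these genes stand 2 days after Trap, in cells that bear VEGF receptors and in the cells around them. In endothelium Ccnd1 had the largest difference from control among the 10 genes, and all 4 of its Trap libraries lay below both controls, as did those of Cdk4 and E2f1, while those of Cdk6 lay above both. None of the 10 genes passed limma's test in any population. In endothelium 0 of 10 passed (0.0791% of all genes did), with 2 of 10 at an unadjusted p under 0.05 (7.45% of all genes).

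Ccnd1 was 55.1 and 29.7 FPKM in the endothelial controls and 11.4, 9.48, 7.84 and 1.99 FPKM in the Trap libraries. The groups did not overlap: the highest Trap library was at less than the lower control. The means were 42.4 ± 18.0 FPKM (SD, n = 2) and 7.68 ± 4.06 (n = 4). The difference was -2.44 ± 0.53 in log2 (SE, limma adjusted p = 0.0919, unadjusted p = 1.0e-04). The call turned on how the spread was handled. Endothelium had the widest residual spread of the 5 populations (median SD 0.379 on the log2 scale, against 0.224 in cTEC), and the fit reported here gives it less weight. That weighting was chosen after an equal-weight fit of these data had been run. With equal weight for all libraries Ccnd1 passed (limma adjusted p = 0.00408, where 1.74% of all genes passed), as it did with a weight for each library (limma adjusted p = 0.0441), with a pseudocount of 5 (-1.92, limma adjusted p = 0.00183) and without Trap replicate 2 (-2.59, limma adjusted p = 0.0312). It did not pass in the 6 endothelial libraries alone (limma adjusted p = 0.521), and without control replicate 1 the difference was -2.0 (limma adjusted p = 0.801).

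In the other populations the Ccnd1 differences between Trap and control were smaller in size: -0.23 ± 0.39 in CD146+ mesenchyme, -0.18 ± 0.36 in CD140a+ mesenchyme, -0.06 ± 0.31 in cTEC and -0.17 ± 0.45 in mTEC (SE, limma adjusted p = 1 for each). The endothelial difference minus the mean of those 4 was -2.28 ± 0.56 (limma adjusted p = 0.278), and it passed with equal weight (limma adjusted p = 0.0319) and with a pseudocount of 5 (-1.82, limma adjusted p = 0.00990). For that difference 0 of the 10 genes passed (0.0304% of all genes), with 3 at an unadjusted p under 0.05: Ccnd1, Cdk4 and Cdk6 (5.92% of all genes).

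The other D-type cyclins overlapped between the groups. Ccnd2 was 20.8 and 20.8 FPKM in the endothelial controls and 19.8, 30.1, 15.5 and 12.9 with Trap, on both sides of the controls (-0.15 ± 0.29, SE, limma adjusted p = 1). Ccnd3 was 1.14 and 1.19 FPKM in controls and 0.53, 1.17, 1.22 and 0.45 with Trap, overlapping (-0.26 ± 0.35, limma adjusted p = 1). The summed FPKM of the 3 genes was 64.4 ± 17.9 (SD, n = 2) in controls and 28.1 ± 10.8 (n = 4) with Trap. The Ccnd1 share of that sum was 71.5 and 57.4% in the controls and 36.0, 23.2, 31.9 and 13.0% with Trap, and the Ccnd2 share 27.0 and 40.2% against 62.3, 73.9, 63.1 and 84.1%. Neither share overlapped between the groups. Each gave p = 0.133 in an exact two-sided permutation test, the smallest that 2 against 4 libraries allow, so the design cannot pass 0.05 for a single value. In the other populations the mean Ccnd1 share moved by at most 3.44 percentage points (23.5 to 20.03% in CD140a+ mesenchyme).

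The kinases lay on opposite sides. Cdk4 was 16.1 and 14.3 FPKM in the endothelial controls and 6.71, 3.45, 12.8 and 10.5 with Trap. Cdk6 was 7.95 and 6.85 FPKM in the controls and 13.3, 23.2, 11.4 and 11.7 with Trap. For both genes the groups did not overlap, with Cdk4 low and Cdk6 high in all 4 Trap libraries. The differences were -0.91 ± 0.45 for Cdk4 (SE, limma adjusted p = 0.669) and 0.87 ± 0.26 for Cdk6 (limma adjusted p = 0.265, and 0.0266 with equal weight). Cdk6 gave 33.1 and 32.4% of their summed FPKM in the controls and 66.5, 87.1, 47.0 and 52.9% with Trap (exact two-sided permutation p = 0.133, the smallest possible); in the other 4 populations the mean share differed by at most 3.66 percentage points.

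E2f1 was 1.73 and 2.66 FPKM in the endothelial controls and 1.48, 0.00, 1.08 and 0.73 with Trap. All 4 Trap libraries were below the controls, and 1 of them was listed at 0 (-0.87 ± 0.51, SE, limma adjusted p = 0.779). Ccne1 was 2.20 and 0.61 FPKM in controls and 2.34, 0.04, 1.96 and 0.09 with Trap, and Ccne2 was 8.68 and 7.50 against 6.0, 12.5, 8.78 and 5.06. Both overlapped, with differences of -0.31 ± 0.65 and -0.07 ± 0.31 (SE, limma adjusted p = 1 for each). Among the inhibitors, Cdkn1b was 7.17 and 8.36 FPKM in controls and 10.1, 3.44, 8.05 and 10.1 with Trap (-0.06 ± 0.37, limma adjusted p = 1). Cdkn2c was 0.15 and 3.64 FPKM in controls and 0.41, 0.17, 2.07 and 0.43 with Trap (-0.49 ± 0.66, limma adjusted p = 1). The 2 control libraries of Cdkn2c lay farther apart than the group means, and both inhibitors overlapped.

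Counted over the set in endothelium, 9 of 10 differences were below 0, with a median of -0.29 (all genes, -0.02). Of these, Ccnd2, Ccne1, Ccne2, Cdkn1b and Cdkn2c changed sign under at least 1 alternative. The share of all genes below 0 was not counted, here or for the lists below. All 4 Trap libraries lay below both controls for 3 of 10 genes (9.48% of all genes) and above both for 1 of 10 (5.36%). Markers of other cells moved in the same libraries. The CD140a+ list summed to 57.0 to 79.8 FPKM in the endothelial controls, each with 1 of 8 markers at 0 (Pdgfra or Dpt), and to 100 to 122 with Trap, with 8 of 8 above 0. Cortical markers summed to 59.3 FPKM and medullary markers to 248 in Trap replicate 2, against 6.97 to 14.3 and 33.1 to 104 in the other 5 libraries. In Trap replicate 2 Ccl21a alone gave 202 FPKM of the medullary sum, and Aire, Fezf2 and Cldn4 were listed at 0. That library also held the highest endothelial Cdk6, Ccnd2 and Ccne2 and the lowest Cdk4, E2f1 and Cdkn1b. Without it Cdk6 differed by 0.65 (limma adjusted p = 0.262) and Cdk4 by -0.60 (limma adjusted p = 0.713). Trap replicates 2 and 4, with the fewest genes at 1 FPKM, held the lowest endothelial Ccne1 (0.04 and 0.09 FPKM) and E2f1 (0.00 and 0.73). Without replicate 4 the differences were -1.99 for Ccnd1 (limma adjusted p = 0.241), -1.05 for Cdk4 (0.670) and 0.96 for Cdk6 (0.335). E2f1 differed by -0.61 (limma adjusted p = 0.795) without replicate 2 and by -0.87 (limma adjusted p = 0.880) without replicate 4. Erythroid genes (8 listed) summed to 16.2 and 79.1 FPKM in the controls and 73.5 to 118 with Trap. The part of these markers in the results was not tested.

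**Figure D4:**
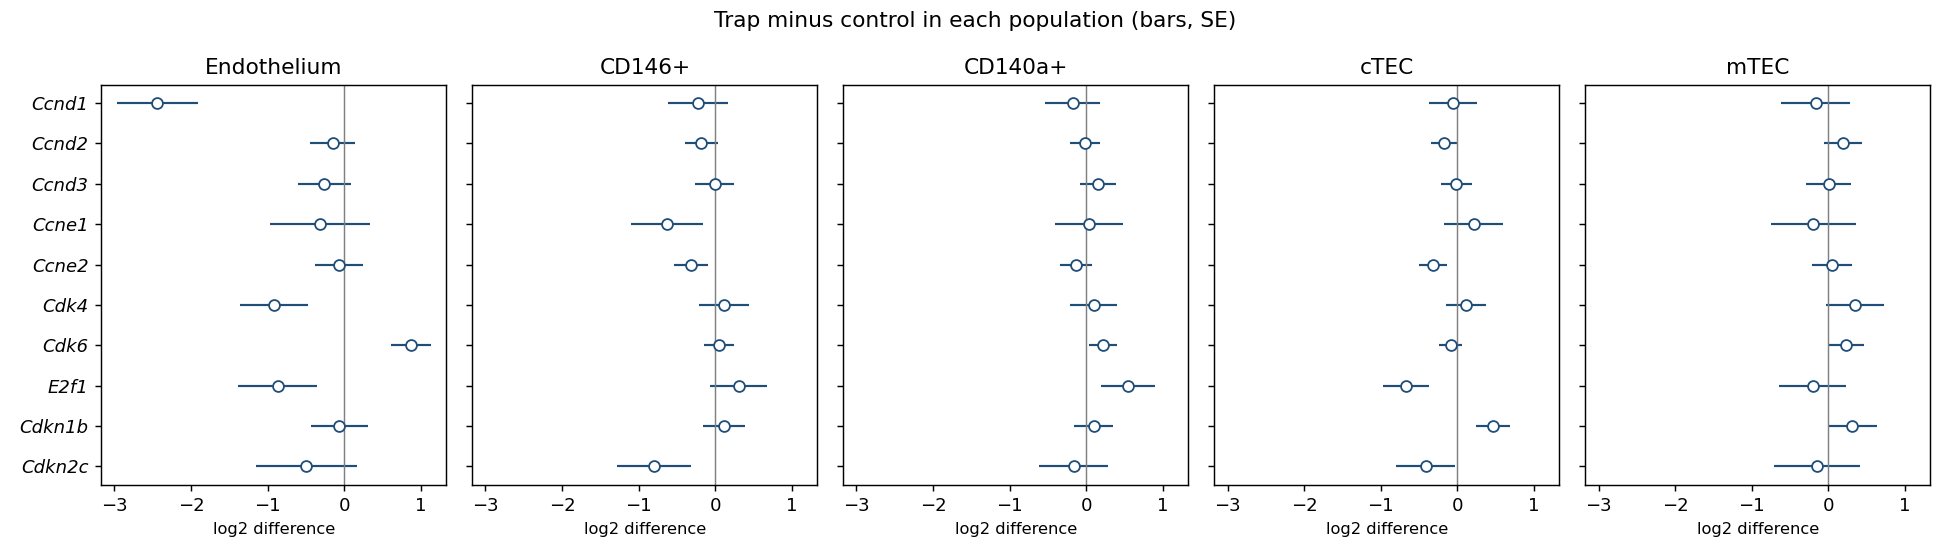
Trap minus control in log2(FPKM + 1) for the 10 genes in each population, with bars of 1 SE and open points throughout because no gene had a limma adjusted p under 0.05. In endothelium Ccnd1 (-2.44), Cdk4 (-0.91) and E2f1 (-0.87) lie to the left of 0 and Cdk6 (0.87) to the right.

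Outside endothelium 0 of 10 genes passed limma's test in CD146+ mesenchyme (0.0365% of all genes), CD140a+ mesenchyme (0.00609%), cTEC (0.0487%) and mTEC (0.28%). At an unadjusted p under 0.05 there were 0, 0, 2 and 0 of 10, against 6.32, 5.91, 6.58 and 5.46% of all genes. The pair in cTEC was E2f1 and Cdkn1b. E2f1 was 2.25 and 1.53 FPKM in cTEC controls and 1.31, 1.22, 0.49 and 0.39 with Trap, all 4 below both controls (-0.67 ± 0.30, SE, limma adjusted p = 0.710). Cdkn1b was 8.27 and 10.9 FPKM in controls and 14.7, 10.7, 16.0 and 13.1 with Trap, where 1 Trap library overlapped (0.46 ± 0.22, limma adjusted p = 0.756). The cTEC libraries with Trap also held the higher thymocyte sums given above, whose part was not tested.

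In cTEC all Trap libraries lay below both controls for 3 of 10 genes (7.87% of all genes) and above for 0 of 10 (5.66%). Besides E2f1 these were Ccne2, at 5.33 and 5.41 FPKM in controls and 3.45, 4.28, 4.95 and 3.96 with Trap, and Cdkn2c, at 1.51 and 1.80 against 0.52, 1.41, 1.5 and 0.71. Their differences were -0.31 ± 0.18 and -0.41 ± 0.39 (SE, limma adjusted p = 0.855 and 0.964). In mTEC 1 of 10 genes lay above (5.06%) and 0 of 10 below (8.4%). That gene was Cdk6, at 19.0 and 20.6 FPKM in controls and 24.7, 21.5, 22.5 and 25.5 with Trap (0.24 ± 0.22, limma adjusted p = 1). In CD146+ mesenchyme no gene lay wholly above or below (5.8 and 6.84% of all genes), nor in CD140a+ mesenchyme (5.14 and 6.79%).

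The wider G1/S machinery gave the setting. Of 24 further G1/S regulators, 0 passed in endothelium with Trap (0.0791% of all genes did), with 2 at an unadjusted p under 0.05, a share near the 7.45% of all genes; 16 were below 0 and the median was -0.15. E2f2, an activating E2F, was 3.17 ± 0.11 FPKM (SD, n = 2) in controls and 0.19 ± 0.17 (n = 4) with Trap (-1.82 ± 0.41, SE, limma adjusted p = 0.102). Ccna2, the cyclin of S phase and G2, was 7.48 ± 2.55 FPKM in controls and 1.73 ± 1.66 with Trap (-1.84 ± 0.53, limma adjusted p = 0.241). These 2 genes had no overlap between groups and passed with equal weight, where 1.74% of all genes did. Next came E2f3 (-0.51 ± 0.31) and the repressor E2f8 (-0.76 ± 0.55), with limma adjusted p of 0.789 and 0.860.

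Genes that act after the G1/S step were also below control in the endothelial Trap libraries. Of 20 S phase genes, which copy DNA or make its building blocks, 0 passed (0.0791% of all genes did) and 14 had an unadjusted p under 0.05 (7.45% of all genes); 20 of 20 were below 0, with a median of -0.94. The smallest p-values were those of the replication clamp Pcna, at 117 ± 13.9 FPKM (SD, n = 2) in controls and 62.1 ± 8.504 (n = 4) with Trap (-0.91, limma adjusted p = 0.0738), then Gins1 (-2.51, 0.0938) and Mcm4 (-1.22, 0.111), of the replicative helicase, and Rrm2 (-1.98, 0.129), of ribonucleotide reductase. Of 16 mitosis genes, 1 passed: the spindle motor Kif11 fell by 2.23 ± 0.35 in log2 (limma adjusted p = 0.00496), from 11.8 ± 2.04 to 1.75 ± 0.49 FPKM. The other 3 of smallest p were Cenpe (-2.03), Cdk1 (-1.97) and Bub1 (-1.61), and 16 of 16 were below 0, with a median of -1.04 and 6 at an unadjusted p under 0.05. With equal weight 11 S phase genes and 6 mitosis genes passed (1.74% of all genes). Summed, the S phase genes were at 288 and 259 FPKM in the controls and 151, 114, 145 and 100.6 with Trap, and the mitosis genes at 147 and 132 against 55.1, 34.2, 56.0 and 43.2. Trap replicates 2 and 4 were the lowest on both sums, with Gins1 and Ccnb1 listed at 0 in both, and Trap replicates 1 and 3 were also below both controls. The part of the lower gene counts of replicates 2 and 4 in these values was not tested. Among the 10 genes, those that lay below both controls beside them were Ccnd1, Cdk4 and E2f1, and neither E-type cyclin did.

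In CD146+ mesenchyme 1 of 20 S phase genes passed with Trap (0.0365% of all genes did). It was the replication gene Mcm3, which fell by 1.35 ± 0.21 in log2 (SE, limma adjusted p = 0.00587), from 10.4 ± 0.42 FPKM (SD, n = 2) to 3.58 ± 1.06 (n = 4). There 19 of 20 S phase genes were below 0, with a median of -0.59 (all genes, 0). Of 16 mitosis genes 0 passed and 15 were below 0, with a median of -0.80. The differences of the D-type cyclins were -0.23 ± 0.39 for Ccnd1, -0.18 ± 0.21 for Ccnd2 and -0.01 ± 0.25 for Ccnd3. Among the 10 genes the lowest differences in these cells were Cdkn2c (-0.80 ± 0.48, limma adjusted p = 0.908) and Ccne1 (-0.63 ± 0.48, limma adjusted p = 0.985). In cTEC 0 genes of either list passed (0.0487% of all genes did). There 17 of 20 S phase and 12 of 16 mitosis genes were below 0 (medians -0.28 and -0.26). The cTEC S phase sum was 207 to 221 FPKM with Trap, against 248 to 258 in controls, and the mitosis sum 148 to 288 against 243 to 259. Below 0 were 13 of 20 and 7 of 16 in mTEC, and 9 of 20 and 13 of 16 in CD140a+ mesenchyme.

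Levels of the proliferation lists were also compared between populations. Between endothelium and the other 4 populations, 1 S phase gene was higher and 9 of 20 lower, and 0 mitosis genes were higher and 10 of 16 lower, where 43.3% of all genes differed. In cTEC 7 of 20 S phase genes and 8 of 16 mitosis genes were higher and 1 of each lower (54.4% of all genes differed). In mTEC 9 of 20 and 11 of 16 were higher, against 37% of all genes. These levels pool control and Trap: in controls alone the S phase sum was 259 to 288 FPKM in endothelium, 284 to 320 in mTEC, 248 to 258 in cTEC, 208 to 266 in CD146+ mesenchyme and 168 to 210 in CD140a+ mesenchyme. The mean of Ccnd1 was 42.4 FPKM in endothelium and 9.44 in mTEC in controls, and 7.68 and 8.09 with Trap.

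The genes lie on 7 chromosomes in GRCm38 (GENCODE M21): Ccnd1 at chr7:144929931-144939925, Ccne1 at chr7:38097984-38107534, Ccnd2 at chr6:127125162-127152193, Cdkn1b at chr6:134920401-134925513, Ccnd3 at chr17:47505051-47599691, Ccne2 at chr4:11191351-11204779, Cdkn2c at chr4:109660876-109667189, Cdk4 at chr10:127063534-127067920, Cdk6 at chr5:3341485-3531008 and E2f1 at chr2:154559407-154569892. All are protein-coding. In 6 of the 10, exons overlap exons on the opposite strand: Ccnd1 with LTO1 over 1100 bases, Cdk4 with Tspan31 over 641, Ccne2 with Ints8 over 609, Ccnd3 with Bysl over 361, Ccnd2 with a pair of antisense RNAs over 372 and 368, and Cdk6 with 1 antisense RNA over 368. The library kit is not stated to keep strand, so reads of such a pair cannot be told apart. Their part in the values of the 10 genes was not tested. LTO1 (listed as Oraov1) was 5.49 and 1.6 FPKM in endothelial controls and 3.7, 0.47, 1.52 and 1.91 with Trap (-0.62 ± 0.41, SE, limma adjusted p = 0.819). Ccnd1 was 55.1 and 29.7 FPKM in those controls and 11.4, 9.48, 7.84 and 1.99 with Trap. Tspan31 differed by 0.46 ± 0.43 with Trap in endothelium (limma adjusted p = 0.948), where Cdk4 differed by -0.91 ± 0.45. Ints8 differed by -0.03 ± 0.24 with Trap in endothelium (limma adjusted p = 1); by level it was lower in cTEC, as Ccne2 was, and higher in endothelium by 0.50 ± 0.13 (limma adjusted p = 0.00217) and in CD146+ mesenchyme by 0.34 ± 0.10 (limma adjusted p = 0.00641). Bysl differed by -0.39 ± 0.44 with Trap in endothelium (limma adjusted p = 0.992) and by -0.00 ± 0.17 in level in CD140a+ mesenchyme (limma adjusted p = 0.998), where Ccnd3 was higher.

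The genes whose log2(FPKM + 1) ran most like each member over the 30 libraries are given as a description; the libraries share 5 populations, so these values mostly follow population means. Ccnd2 ran with Chml (Pearson r = 0.946) and Parm1 (0.945), Cdk6 with Inhba (0.911), and Ccnd3 with Glis2 (0.904) and Ptn (0.902). Ccnd1 came closest to Ino80c (0.840) and Ostf1 (0.820), Cdk4 to Gpr108 (0.801) and Commd6 (0.745), Cdkn1b to Tmem245 (0.795) and Kctd6 (0.793), Ccne1 to Rab30 (0.774) and Jund (0.746), and Ccne2 to Trim72 (0.770) and Mtmr2 (0.759). E2f1 (Atf5, 0.690, and Gbf1, 0.685) and Cdkn2c (Atcay, 0.599, and Dnal1, 0.597) had no close match, and both were among the genes of lowest level.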

How the data were processed

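Per the labels' protocols, cDNA was amplified (Ovation V2) and read pairs were sequenced. The authors deposited FPKM values for 18847 genes in 30 libraries. Per the submitters' processing notes, bcl2fastq 2.17, STAR and DESeq2 were used with GRCm38 and mm10; the role of each tool, annotation and counting were not given in the sources used here. FPKM keep no depth: the spacing of low values was checked for whole multiples of 1 fragment, but scores reached only 0.264 to 0.471 (1 means whole multiples), so counts were not rebuilt, depth is unknown and no counting interval is given. An exact 0 means only that a gene is listed at 0.

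Tests ran in R 4.3.3 with limma 3.58.1 on log2(FPKM + 1), a scale that understates changes of low genes. Genes at 1 FPKM or more in at least 2 libraries were kept (16425). The fit had 10 group means over 30 libraries, 1 weight per population (residual spread differed between populations), a variance trend, and two-sided tests adjusted by Benjamini-Hochberg over all genes, passing under 0.05. The weights were brought in after an equal-weight fit of these data had been run. Levels compare the average of a population's control and Trap means with that of the other 4. The code was tested on simulated data. The 10 genes were named in every comparison, with the 4 genes of smallest p of each Trap list in endothelium and, per gene, the 2 most correlated genes with a group mean of at least 5 FPKM (1 of these is not reported here); other genes named were chosen after their values were seen. Members and lists were chosen with earlier results of these data known. Alternatives were equal weight, a weight per library, pseudocounts of 0.1 and 5, no filter and a filter at 5 FPKM, TPM, upper quartile and quantile scaling, a replicate block, 1 population alone, control libraries only, and leaving out each library. Replicate numbers were not used to pair samples, and the labels do not say whether same-numbered libraries share animals. Deviations of same-numbered Trap libraries correlated at -0.02 to 0.10 between populations, over 0.1 in 1 of 40 pairs. Such values between different cell types cannot show whether animals were shared.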

Additional observations from a re-analysis of the deposited data

Results flagged for a closer look

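In 3 of the 50 groups of 4 Trap libraries, 1 library stood apart from the other 3 by Dixon's gap test, which chance gives in about 5 percent of groups. Cdk4 in mTEC was 7.04 FPKM in Trap replicate 2 and 21.1 to 24.0 in the other 3, while the controls were 17.03 and 10.3. Ccne1 in CD146+ mesenchyme was 4.71 FPKM in Trap replicate 4 and 1.70 to 1.80 in the others, with controls at 2.91 and 5.62. Ccnd2 in cTEC was 35.1 FPKM (35.09) in Trap replicate 3 and 28.9 to 29.8 in the others, with controls at 35.2 and 34.0.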

How the results depend on the processing

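The count of the 10 genes that passed with Trap in endothelium was 0 as reported, 2 with equal weight (Ccnd1 and Cdk6), 1 with a weight per library, 1 with a pseudocount of 5, and 0 to 1 with each library left out in turn. All genes that passed there numbered 13 as reported, 286 with equal weight, 24 with a weight per library, 2 and 69 with pseudocounts of 0.1 and 5, 25 without a filter, 5 with the filter at 5 FPKM, 3 under TPM, 8 with quantile scaling and 8 in the endothelial libraries alone. For the endothelial difference against the other 4 populations the count of the 10 was 0, and 1 with equal weight or a pseudocount of 5. With control libraries only, the counts for levels fell from 5 to 3 in endothelium, 5 to 3 in CD140a+ mesenchyme, 6 to 1 in cTEC and 3 to 1 in mTEC, and with 1 library left out they ran from 3 to 6, 3 to 5, 4 to 6 and 2 to 3. Neighbours that differed numbered 8, 13 with quantile scaling and 5 with control libraries only. Shares of all genes with control libraries only are not given here, so those counts are not read as a result about the 10 genes. The endothelial level of Cdk4 turned from -0.43 to 0.11 with control libraries only, neither of which passed. The replicate block left the endothelial Trap count at 0 (11 of all genes passed, against 13) and changed no call on the 10 genes; Ccnd1 was then -2.35. Scaling moved the median of all genes for mTEC from 0.19 to 0.07 under TPM, 0.04 under upper quartile and -0.14 under quantile scaling, for endothelium from -0.19 to -0.05 and for CD140a+ mesenchyme from -0.19 to -0.07 under quantile scaling, and for CD146+ mesenchyme from -0.08 to 0.04 under TPM. Of 110 tests of a gene, 79 passed under no alternative, and 42 of those changed sign under at least 1. Ccnd3 and Cdkn2c were dropped by the filter at 5 FPKM. Except where the alternative leaves out samples or genes, the cause of a change was not tested. Depth is unknown, so a level near 0 cannot be told from absence.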

Other observations

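Other inhibitors of cyclin-dependent kinases also differed in level between populations. Cdkn1c (p57), an inhibitor of the p21 family that is high in many embryonic tissues, was 323 ± 24.6 FPKM (SD, n = 6) in CD140a+ mesenchyme, 78.8 ± 23.8 in mTEC, 24.2 ± 7.51 in CD146+ mesenchyme, 14.3 ± 6.14 in endothelium and 8.82 ± 2.50 in cTEC. It was higher in CD140a+ mesenchyme than in the other populations by a log2 value of 3.84 ± 0.17 (SE, limma adjusted p = 2.8e-16) and lower in cTEC by 2.58 ± 0.16 (limma adjusted p = 1.4e-13). Cdkn1a (p21), a target of p53, was 116 ± 21.4 FPKM in endothelium, 102 ± 46.4 in mTEC, 76.2 ± 30.6 in cTEC, 43.6 ± 6.99 in CD146+ mesenchyme and 28.4 ± 14.7 in CD140a+ mesenchyme. It was higher in endothelium by 1.13 ± 0.27 (limma adjusted p = 0.00138) and in mTEC by 0.72 ± 0.24 (limma adjusted p = 0.0129), and lower in CD140a+ mesenchyme (limma adjusted p = 1.8e-07) and in CD146+ mesenchyme, there by 0.57 ± 0.21 (limma adjusted p = 0.0313).

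Of the INK4 inhibitors, Cdkn2b (p15) was 21.5 ± 2.30 FPKM (SD, n = 6) in mTEC, where it was higher by 3.08 ± 0.34 (SE, limma adjusted p = 1.4e-08), and 0.30 ± 0.44 in endothelium. Cdkn2a reached 0.12 to 3.02 FPKM in mTEC and was listed at 0 in all 12 libraries of endothelium and cTEC. Cdkn2d (p19) had means between 1.45 and 3.05 FPKM and passed in no population (limma adjusted p from 0.134 to 0.859). Rb1, the substrate of the cyclin D kinases, was 6.41 ± 1.14 FPKM in CD140a+ mesenchyme, lower by 1.98 ± 0.10 (limma adjusted p = 3.2e-15), and 24.4 to 35.4 in the mean of each other population. E2f8, a repressor of E2F targets, was 18.1 ± 8.02 FPKM in cTEC, higher by 2.04 ± 0.20 (limma adjusted p = 1.3e-09). These genes were picked from the 24 G1/S regulators after their values were seen.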
